A study of Mus musculus with 4 samples.

Results

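Occupancy of MED1 was examined at 10 genes of leukocyte adhesion: the integrin alpha chains Itgal, Itgam, Itgax, Itga4 and Itga5, the beta chains Itgb1 and Itgb2, the integrin ligands Icam1 and Vcam1, and Cd44. The genes were selected by name as a functional family, and they are 10 of 21887 protein-coding genes that RefSeq places on the autosomes, X and Y of GRCm38.p6 (mm10). MED1, one of the proteins of Mediator, the complex that connects DNA-bound factors with RNA polymerase II, was mapped by ChIP-seq in RAW 264.7, a mouse monocyte/macrophage-like cell line, either left untreated (2 libraries) or given the bacterial lipopolysaccharide LPS for 2 h (2 libraries). The LPS dose reads 10 ng/mL in the sample descriptions and 100 ng/mL in the treatment protocol. What was analysed is 1 list of genomic intervals deposited for all 4 libraries, with positions and no heights, so occupancy in untreated and in stimulated cells cannot be told apart, the spread between libraries and the read depth are unknown, and every statement concerns the presence and extent of called regions. Background calls among the regions cannot be told apart from occupancy, because the use of a control is not given in the sources used here.

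Integrins are heterodimers of an alpha and a beta chain that hold cells to matrix and to other cells, and they must be switched on from inside the cell before they bind firmly. Itgb2 pairs with Itgal (LFA-1), Itgam (Mac-1) and Itgax, the leukocyte-restricted group, whereas Itgb1 pairs with Itga4 (VLA-4) and Itga5 (the fibronectin receptor) and is made by most cell types. ICAM-1 is a ligand of the Itgb2 group and VCAM-1 of VLA-4, and both are known as inducible molecules of inflamed endothelium. CD44 is no integrin: it is a receptor for hyaluronan that takes part in rolling and migration.

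Abutting intervals were joined into regions, which gave 22570 regions in all. A region was counted for a gene when it overlapped the gene or had its midpoint within 50 kb of either gene end. By this count 9 of the 10 adhesion genes had a region, against 70.6% of protein-coding genes. By midpoints alone the number was 9, against 70.3%, and a region overlapped the gene itself in 9, against 50.6%. The gene with no region in any of these senses was Vcam1. The median was 7 regions per adhesion gene and 2 per protein-coding gene, and 3 among the 9867 protein-coding genes whose length falls within the range of these 10. No test was made, since the genes were chosen with results of these data known.

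**Figure D1:**
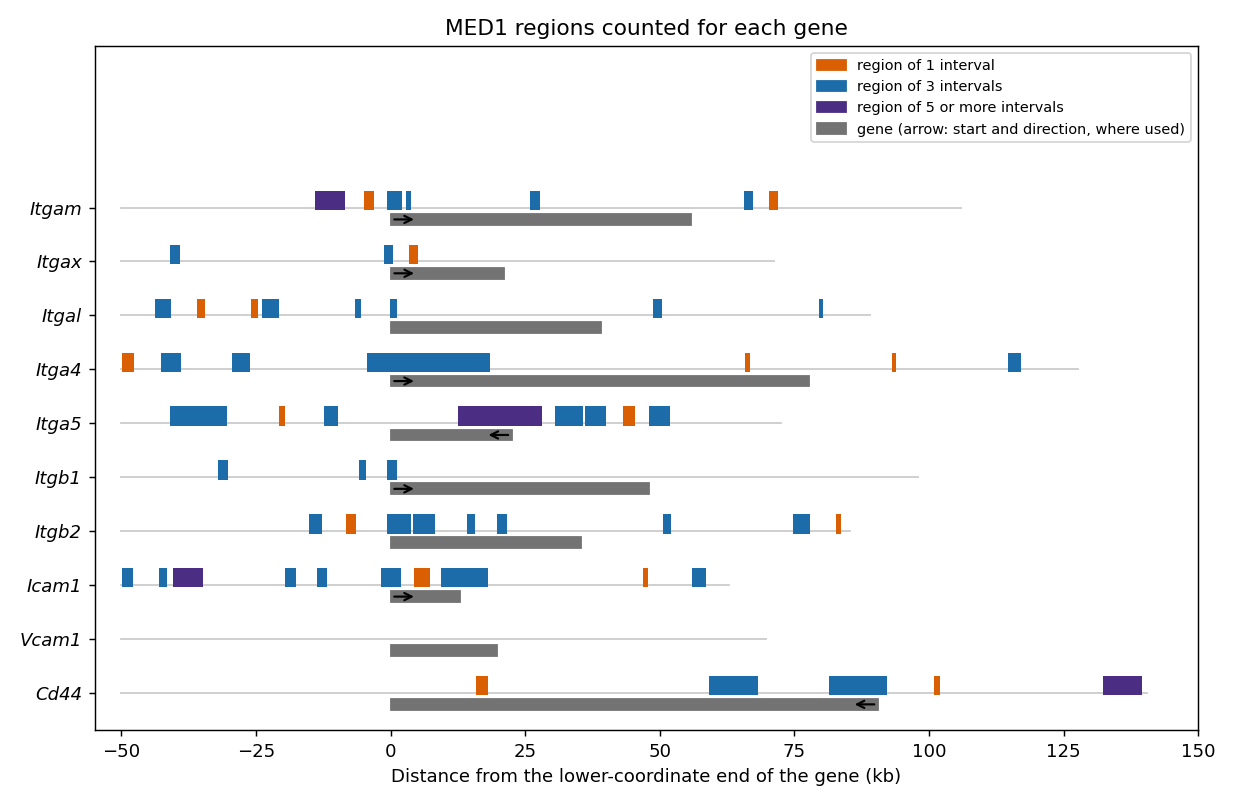
Positions of the MED1 regions counted for each adhesion gene, in kb from the gene end with the lower coordinate; grey bars are genes, thin lines the gene with 50 kb on each side, and colours give the number of abutting intervals joined into a region. Icam1 carries 10 regions, Itgb1 and Itgax carry 3 each and Vcam1 carries none.

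In order, Icam1 had 10 regions, Itgb2 had 9, Itgal and Itga5 had 8 each, Itgam and Itga4 had 7 each, Cd44 had 5, Itgax and Itgb1 had 3 each, and Vcam1 had 0. As many regions as at Icam1 were found at 2.44% of protein-coding genes and as many as at Itgb2 at 4.20%, whereas 46.1% of genes matched or exceeded Itgax and Itgb1. With 1 list there is no spread between samples against which neighbouring ranks could be separated. Counts were also divided by window length, per 100 kb of gene and flanks. The flanks are 50 kb at every gene, so gene length is not fully taken out. Icam1, the shortest of the 10 genes, still came first (8.86 regions), followed by Itgb2 (6.65), Itga5 (6.53) and Itgal (5.76). Itgam (4.49) and Itga4 (3.94) came next, then Cd44 (2.62), Itgax (2.48) and Itgb1 (2.03), beside a median of 1.64 over protein-coding genes.

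**Figure D2:**
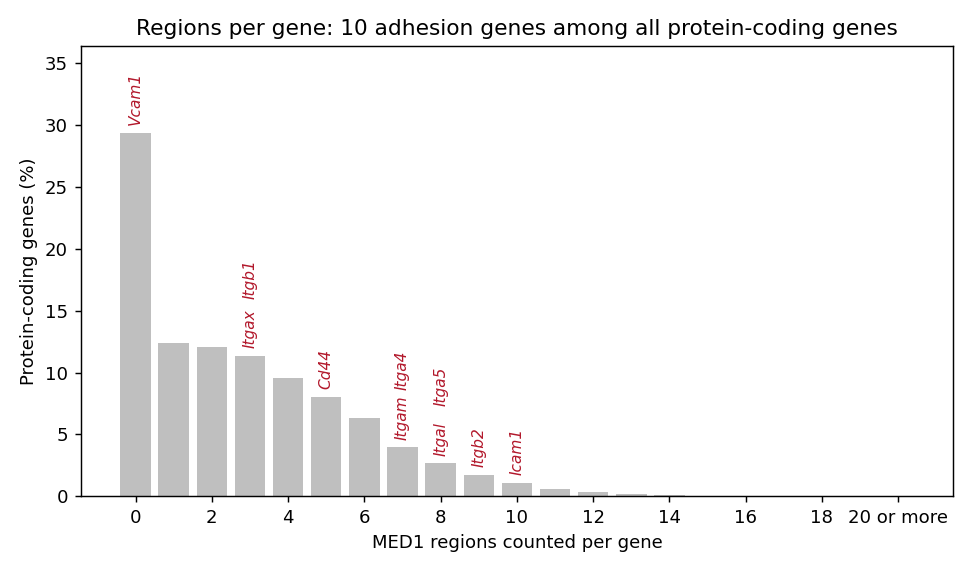
Number of MED1 regions counted per gene (horizontal axis) for all protein-coding genes (grey bars, percent of genes), with the adhesion genes written above the bar of their own count. Of the 10 genes, 9 lie above the median of 2 regions and Vcam1 lies in the bar at 0.

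Many counted regions lie at neighbouring genes. The 10 windows held 57 different regions, of which 20 overlapped one of the adhesion genes, 20 overlapped other protein-coding genes alone and 17 overlapped no protein-coding gene. When each region was credited only to the protein-coding gene nearest to its midpoint, the median fell to 3 per adhesion gene and to 0 per protein-coding gene, with 5 regions each at Itgam, Itga4 and Cd44, 4 at Itgb2, 3 at Itga5 and Itgb1, and 2 at Itgal, Itgax and Icam1. The gene order thus changed: Icam1 and Itgal, among the highest by the window count, dropped to the lowest value above 0. A region of 8.64 kb that overlaps Icam1 was credited to Icam4, which holds its midpoint.

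Itgam encodes the alpha chain of Mac-1 (CD11b), the integrin by which macrophages are most often recognised. It spans chr7:128062640-128118491, and 3 regions overlapped it. The first, chr7:128061992-128064832 (2.84 kb), lay over the transcription start and reached 0.648 kb upstream and 2.19 kb downstream of it. A small region of 881 bp followed (chr7:128065469-128066349), and one of 1765 bp lay inside the gene, its midpoint 26.8 kb from the start. Upstream, a region of 5 intervals (5.71 kb, chr7:128048517-128054226) had its midpoint 11.3 kb from the start, and a region of 1 interval lay between it and the gene. No region overlapped the far end of the gene, and 8.66% of Itgam was covered.

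Itgax (CD11c, chr7:128129526-128150657), a marker of dendritic cells and of some macrophages, begins 11.04 kb beyond the end of Itgam. A region of 1.72 kb lay over its start, reaching 1.25 kb upstream and 0.465 kb downstream. It was the only start region of the 7 examined that reached farther upstream than downstream. A region of 1 interval (1652 bp) lay inside the gene, its midpoint 4.27 kb from the start end. All 3 regions counted for Itgax were also counted for Itgam, and they were the only regions shared between any of the 10 genes. Itgad, the alpha chain gene that lies next in this cluster, was overlapped by none.

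Itgal encodes the alpha chain of LFA-1 (CD11a) and lies on the same chromosome at chr7:127296139-127335137. Only 1 of its 8 regions overlapped the gene, a region of 1255 bp at its lower-coordinate end (chr7:127296058-127297312), and 3.01% of the gene was covered. Another, of 1160 bp, lay 6.01 kb outside that end by its midpoint. Of the remaining 6, 5 overlapped the neighbouring genes Zfp771, Dctpp1, Sephs2, Zfp768 and Zfp747, and 1 lay 1.04 kb from Sephs2. Of the 8 regions counted for Itgal, then, 2 had Itgal as their nearest protein-coding gene.

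Itgb2 (CD18, chr10:77530329-77565708), the beta chain shared by these 3 alpha chains, had regions spread over its own body. Of its 9 regions, 4 overlapped the gene, more than at any other of the 10. The region at the lower-coordinate end measured 4.45 kb (chr10:77529700-77534145) and was followed after a gap of 319 bp by one of 4.08 kb (chr10:77534465-77538546). The others inside the gene measured 1501 and 1768 bp. Together they covered 31.6% of Itgb2, a share reached by 7.70% of protein-coding genes. Outside the gene, 3 regions lay at Sumo3 and Pttg1ip, 1 at Fam207a and 1 over no protein-coding gene. Among the leukocyte-restricted integrin genes, Itgb2 thus stood above its partners in the share of the gene covered, at 31.6% beside 10.1% for Itgax, 8.66% for Itgam and 3.01% for Itgal.

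Itga4 (CD49d, chr2:79255426-79333114), the alpha chain of the VCAM-1 receptor VLA-4, carried the widest region of all those counted. It measured 22.8 kb (chr2:79251010-79273824), ranked 48 of 22570 by width, and extended from 4.42 kb upstream of the start to 18.4 kb downstream. It consisted of an inner interval of 18661 bp between intervals of 774 and 3380 bp. Only 0.170% of the protein-coding starts inside a region had one reaching as far downstream. Farther upstream, 3 regions of 2178 to 3789 bp lay at 27.8 to 48.8 kb from the start, with no protein-coding gene closer than Itga4. The distal part of the gene held 1 region of 983 bp.

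Itga5 (CD49e, chr15:103344286-103366791), the fibronectin-binding alpha chain, is read from the minus strand. The region over its start was 15.5 kb wide (chr15:103356829-103372324, rank 153), reached 5.53 kb upstream and 9.96 kb downstream, and was made of 9 abutting intervals, the most in any region counted here. The start lay in the sixth interval by coordinate, the longest of the 9 at 4095 bp. Beyond the start followed 4 more regions of 2.23 to 5.17 kb without an overlapping protein-coding gene. The farthest of them, chr15:103387469-103389699 and chr15:103392222-103396156, had Gtsf1 as the nearest protein-coding gene, 13.9 and 8.27 kb from their midpoints. With regions at most 12.5 kb apart stitched together, the start region and the 4 beyond it formed a cluster spanning 39.3 kb and covering 30.7 kb. It had rank 131 of 13554 clusters, the highest rank of any cluster over the 10 genes. On the other side of Itga5, a region of 10.5 kb lay over Gpr84, a receptor gene for medium-chain fatty acids, and 2 regions lay over Zfp385a.

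Itgb1 (CD29, chr8:128685654-128733579), the beta chain common to VLA-4 and the fibronectin receptor, had the smallest extent of any gene with a region. A region of 1.83 kb lay over the start (0.691 kb upstream and 1.14 kb downstream), and the other 2 lay upstream, with midpoints 5.19 and 31.1 kb from the gene. No region lay in the remaining 46.8 kb of the gene or in the 50 kb beyond it. The next region outside the window had its midpoint 327.3 kb away, near Nrp1. The partners in these heterodimers therefore differed in extent. Regions covered 20.3% of the Itga4 window, 36.5% of the Itga5 window and 3.27% of the Itgb1 window. The last was close to the median of 3.07% over protein-coding genes. The Itga4 and Itga5 windows include regions over neighbouring genes. Of the genes themselves, 24.9% of Itga4, 44.3% of Itga5 and 2.38% of Itgb1 was covered.

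Icam1 (chr9:21015940-21028814), the ligand of LFA-1 and Mac-1, had the highest share of its own length under regions among the 10 genes, 65.4% of 12.9 kb. A region of 3.84 kb centred 0.075 kb from the start (chr9:21014096-21017934), a region of 1 interval and 2897 bp inside the gene, and a region of 8.64 kb over its other end (chr9:21025293-21033936) made up this cover. The last extended over all of Icam4, which encodes an erythroid adhesion molecule and begins 0.618 kb beyond Icam1, and into Icam5, which encodes a neuronal one and was covered to 27.1%. Within this joined region the first interval (3806 bp) ends before Icam4 and the second (4790 bp) begins beyond Icam1, so no single interval touched both genes. Icam1 was the only one of the 10 with both gene ends inside a region, against 4.09% of protein-coding genes, whereas at least 1 end was inside a region at 9 of the 10 genes, against 40.4%. The remaining 7 regions of its window lay at S1pr2 (3 regions), Mrpl4, Zglp1, Fdx2 with Raver1, and at 3.93 kb from Mrpl4.

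Vcam1 (chr3:116110020-116129688), the ligand of VLA-4, stood apart from Icam1: no region overlapped it or lay within its window. It was the only protein-coding gene wholly inside a stretch of 174.9 kb without a region. The neighbouring regions lay 54.3 kb away on one side (chr3:116184008-116187097, 3090 bp), with no protein-coding gene closer than Vcam1, and 100.9 kb away on the other, over Slc30a7 and Extl2. Such a gene is common in these data, as 29.4% of protein-coding genes had no counted region, and 10.2% of the gaps between neighbouring regions were as long or longer. The median gap was 19.2 kb. The list does not show whether MED1 was absent from Vcam1 or below the level of calling.

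Cd44 (chr2:102811141-102901669), the longest of the 10 genes at 90.5 kb, is read from the minus strand and was overlapped by 3 regions. The region over its start was 10.9 kb wide (chr2:102892484-102903371), with 1.71 kb upstream and 9.18 kb downstream. A second of 9.13 kb (chr2:102870261-102879394) lay inside the gene, its midpoint 26.8 kb from the start end, and one of 1 interval and 2218 bp lay in the distal part. In both wide regions the longest of the 3 intervals was the first by coordinate, which is the end farthest from the start, and the start itself lay in the last interval. At the other 6 starts examined it lay in the longest interval of its region. Upstream, a region of 5 intervals (7253 bp) had its midpoint 45.3 kb from the gene. Regions covered 22.7% of Cd44.

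**Figure D3:**
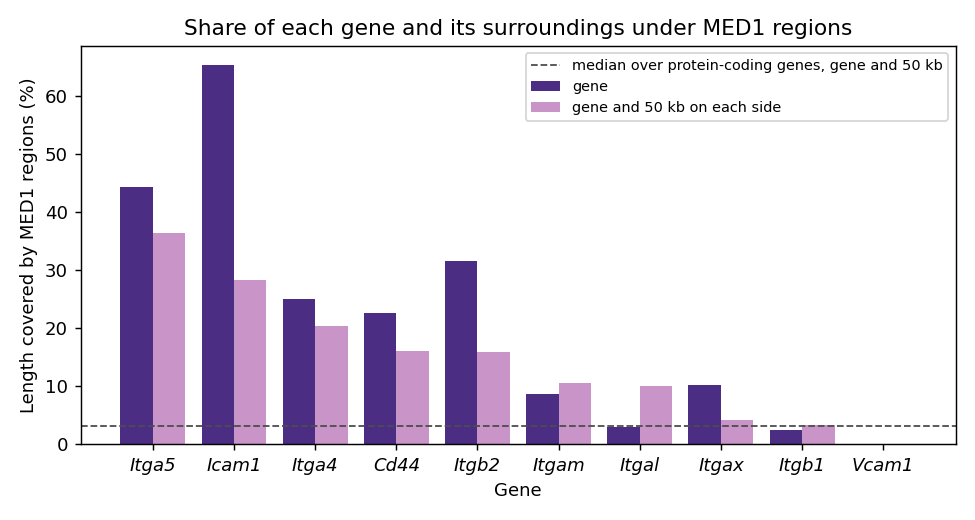
Percent of the length of each adhesion gene (dark bars) and of the gene with 50 kb on each side (light bars) that lies under MED1 regions, ordered by the second value; the dashed line is the median of the second value over protein-coding genes (3.07%). Icam1 has the highest value for the gene (65.4%) and Itga5 for the gene with flanks (36.5%).

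By share of the window covered rather than by number, Itga5 led with 36.5% of its window (a share reached by 0.859% of protein-coding genes), followed by Icam1 with 28.2% (reached by 2.16%) and Itga4 with 20.3% (reached by 5.41%). Cd44 (16.0%) and Itgb2 (15.9%) lay close together. Itgam (10.5%) and Itgal (9.96%) were next, and Itgax (4.24%) and Itgb1 (3.27%) were close to the median. The median over the 10 genes was 13.2%. Cd44, with 5 regions, thus had about the same share covered as Itgb2 with 9. In kb, in windows that grow with gene length, Itga5 (44.7 kb) was followed by Itga4 (36.1 kb), Icam1 (31.9 kb), Cd44 (30.5 kb) and Itgb2 (21.6 kb).

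**Figure D4:**
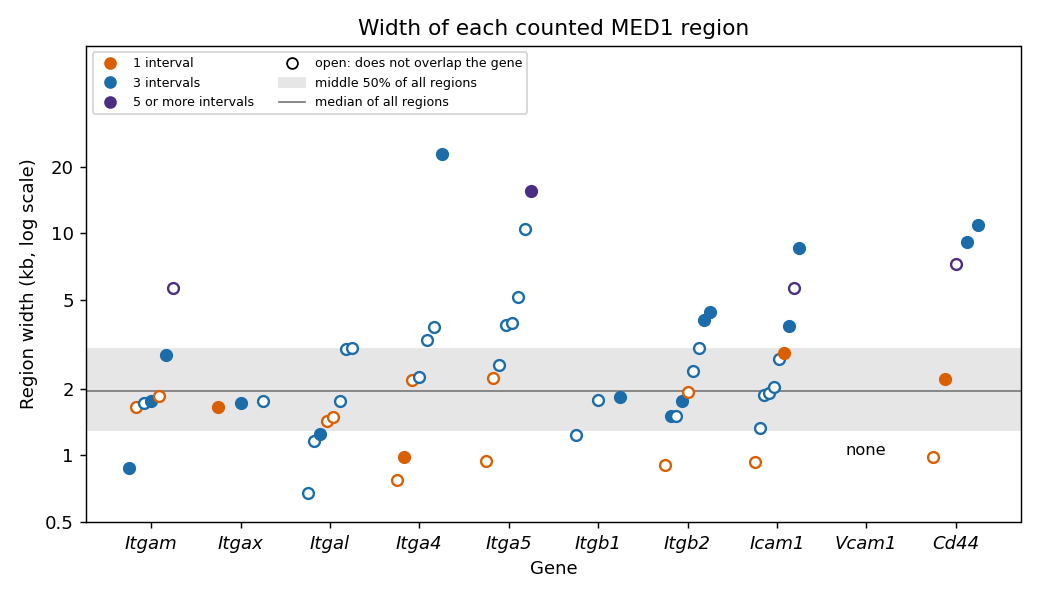
Width of each region counted for each adhesion gene (log scale, kb); filled points overlap the gene, open points do not, colours give the number of intervals, the line is the median of all regions (1948 bp) and the band runs from their lower to their upper quartile. The 5 widest points belong to Itga4 (22.8 kb), Itga5 (15.5 and 10.5 kb) and Cd44 (10.9 and 9.13 kb).

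The widths ran from narrow regions alone at some genes to broad domains at others. Regions counted for the 10 genes ranged from 674 to 22815 bp with a median of 2178 bp, close to the median of 1948 bp over all regions. At Itgax and Itgb1 every region was narrower than 1948 bp. Itga4, Itga5, Icam1 and Cd44 each had at least 1 region of 8.64 kb or more that overlapped the gene. The one at Icam1 lay mostly beyond the gene, with 3.52 kb over Icam1 and 5.12 kb past its end. Of the 57 regions, 38 (66.7%) consisted of 3 intervals and 15 (26.3%) of a single one, against 60.4% and 35.3% of all regions. In 35 of the 38 the inner interval was the longest, as in 92.4% of all regions of 3 intervals. What an interval boundary marks is not given in the sources used here.

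**Figure D5:**
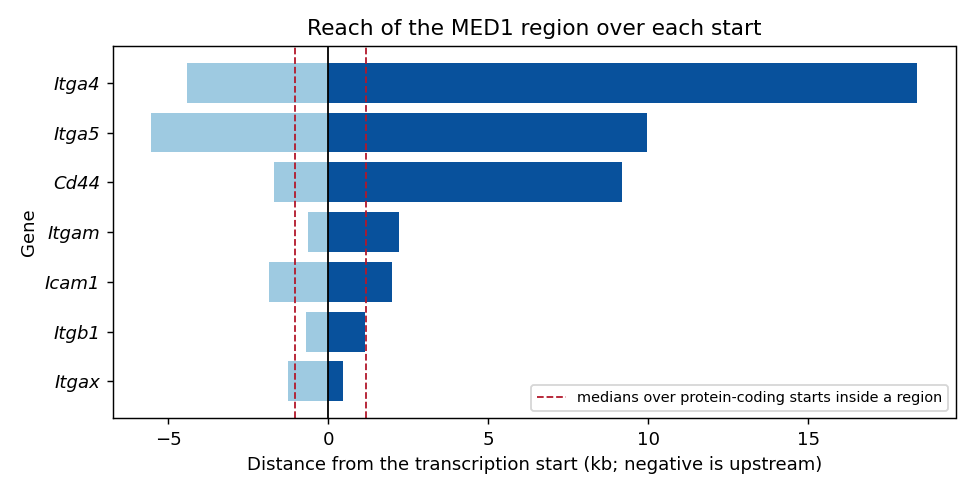
Distance in kb that the MED1 region over each transcription start reaches upstream (light, negative) and downstream (dark) of the start, for the 7 adhesion genes with a start examined; dashed lines are the medians over protein-coding starts inside a region (1.04 kb upstream, 1.16 kb downstream). Itga4, Itga5 and Cd44 reach 9.18 to 18.4 kb downstream and the other 4 reach 0.465 to 2.19 kb.

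Transcription starts were taken from the RefSeq promoter windows on GRCm38.p6, which matched 7 of the 10 genes. Itgal, Itgb2 and Vcam1 were not among them, and their ends are given by coordinate. All 7 starts lay inside a region, against 42.8% of the 17492 protein-coding genes with such a start. Downstream reach was long at Itga4 (18.4 kb), Itga5 (9.96 kb) and Cd44 (9.18 kb) and shorter at Itgam (2.19 kb), Icam1 (1.99 kb), Itgb1 (1.14 kb) and Itgax (0.465 kb). A reach as long as that of Cd44, the shortest of the first 3, was found at 1.68% of starts inside a region.

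The 250 bases before the start are shown for the 4 genes with the shorter downstream reach, whose start regions measure 1.72 to 3.84 kb, so that the letters under the regions can be compared: the neighbouring myeloid genes Itgam and Itgax, the widely expressed Itgb1 and the inducible ligand Icam1. The sequences are from RefSeq, 5′ to 3′ along the gene, all on the plus strand of GRCm38.p6, at chr7:128062390-128062639, chr7:128129300-128129549, chr8:128685404-128685653 and chr9:21015690-21015939 in this order. Capitals mark letters that match one of the motifs described below.
Itgam: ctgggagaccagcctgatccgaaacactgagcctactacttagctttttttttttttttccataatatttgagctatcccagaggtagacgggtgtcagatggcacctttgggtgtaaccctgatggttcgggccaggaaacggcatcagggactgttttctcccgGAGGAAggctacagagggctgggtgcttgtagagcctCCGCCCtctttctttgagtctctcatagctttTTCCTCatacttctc
Itgax: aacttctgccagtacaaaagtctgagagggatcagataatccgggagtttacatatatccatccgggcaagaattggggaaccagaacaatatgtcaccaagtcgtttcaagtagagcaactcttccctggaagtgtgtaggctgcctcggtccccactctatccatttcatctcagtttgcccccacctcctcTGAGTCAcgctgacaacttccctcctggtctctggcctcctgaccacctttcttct
Itgb1: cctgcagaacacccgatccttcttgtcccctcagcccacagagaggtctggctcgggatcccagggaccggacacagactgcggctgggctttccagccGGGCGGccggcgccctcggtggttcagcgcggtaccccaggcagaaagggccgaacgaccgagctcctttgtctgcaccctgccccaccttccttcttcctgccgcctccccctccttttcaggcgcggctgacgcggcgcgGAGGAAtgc
Icam1: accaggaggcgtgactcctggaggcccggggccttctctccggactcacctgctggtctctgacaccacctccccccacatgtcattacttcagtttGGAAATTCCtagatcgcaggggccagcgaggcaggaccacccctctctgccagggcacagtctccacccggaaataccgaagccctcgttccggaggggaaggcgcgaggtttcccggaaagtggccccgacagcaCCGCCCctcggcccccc

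Motifs were searched on both strands of the whole window of 300 bases, which also holds 50 bases after the start, in 21263 windows of protein-coding genes. The letters GAGGAA, a form of the core bound by PU.1, the ETS factor that defines the myeloid lineage, were in 4 of the 7 windows (Itgam, Itga5, Itgb1 and Cd44), against 27.4% of all windows. Itgam had 3 matches, whose first letters lie 84 and 15 bases before the start and 32 bases after it. The SP1 box GGGCGG was in 6 of 7, all but Itgax, against 46.2%. The AP-1 motif TGANTCA was in Itgax alone, 56 to 50 bases before the start, against 6.99% of windows. Icam1 alone held TATAAA (12.6% of windows), which begins 13 bases after the annotated start. The C/EBP motif TTGCNNAA (10.2% of windows) and the NF-kB consensus (4.81%) were in none of the 7. A kB-like run of 9 letters, GGAAATTCC, chosen after the Icam1 sequence was seen, lay 153 to 145 bases before its start and was present in 0.357% of windows. No match overlapped one of another motif. With 7 windows these shares are a description, and a match is not a bound site.

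The windows also differed in CpG content. Itgb1 had 27 CpG dinucleotides in 300 bases, a number reached by 20.7% of windows, and Icam1 had 19, against a median of 13. Itga5 (13) lay at the median, and Itga4 (10), Itgam (6), Cd44 (6) and Itgax (5) lay below it. Itgb1 and Itgax, at opposite ends of this order, had the narrowest of the 7 start regions, 1.83 and 1.72 kb.

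Other genes of integrin function were described from a list of 57. Of these, 48 (84.2%) had a counted region, against 70.6% of protein-coding genes, and 35 (61.4%) were overlapped by one, against 50.6%. Their median was 4 regions, against 2. The 20 genes of inside-out signalling and adaptors stood highest, with 17 overlapped and a median of 6.5. Some of them are long, such as Ptk2 (219 kb), Fyb (143 kb), Ptk2b (128 kb) and Apbb1ip (120 kb). The median over protein-coding genes is 17.2 kb. Longer genes have longer windows, and these lists were not set against genes of like length. Apbb1ip, which encodes the RIAM adaptor that brings talin to integrins, had 16 regions, 10 of them over the gene, and the paxillin gene Pxn had 14, 11 of them over the gene. Ptk2b (PYK2) had 11, 9 of them over the gene, and the focal adhesion kinase gene Ptk2 had 10, 2 of them over the gene. Cyth1, Fyb, the RAPL gene Rassf5 and the kindlin-3 gene Fermt3, needed for integrin activation in blood cells, had 9 each, and the GTPase gene Rap1a had 8. By share of the gene covered, Pxn (42.9%) and Apbb1ip (32.6%) were like Itga5 (44.3%) and Itgb2 (31.6%), and Ptk2 (1.04%) was like Itgb1 (2.38%).

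Among 19 other integrin chains, 9 (47.4%) were overlapped by a region, close to the 50.6% of all protein-coding genes. Their median was 3 counted regions. Itgb5, a partner of the alpha-v chain, had 8. Those without any region were Itga1 and Itga2, which encode collagen-binding chains, Itga9 and the epithelial chain Itgb6. Of 18 other ligands and rolling receptors 9 (50.0%) were overlapped, which is again the general rate. Among the 9 were Icam4 and Icam5, under the region that also lies over the end of Icam1. The median of the 18 was 4 counted regions, and those without a region included Has2, Selp and Thbs1. Fermt1, the epithelial kindlin gene, also had none.

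As a check of the cell type, 8 of 8 macrophage markers were overlapped by a region, against 50.6% of protein-coding genes, with a median of 6.5 counted regions. Of 4 markers in each of the other lists, 3 endothelial, 1 T cell, 0 B cell and 0 fibroblast markers were overlapped. By counted regions these lists came in another order, with medians of 3.5 for T cell, 2 for B cell, 1 for endothelial and 0 for fibroblast markers, against 2 for protein-coding genes. The endothelial genes are set beside Vcam1 because that ligand is chiefly known from endothelium. Of those markers 3 were overlapped, but their median of 1 counted region was below the 2 of protein-coding genes. Whether cell type bears on the lack of a region at Vcam1 was not tested.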

How the data were processed

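MED1 ChIP-seq was made in RAW 264.7 cells, in 2 untreated libraries and 2 after LPS. Per the submitters' processing notes, Bowtie, SAMtools, MACS2 2.2.6 and mm10 were used; no source used here gives the settings of peak calling, a control or pooling. The authors deposited 1 list of 53764 intervals; its score is 0 in every line, per the deposited file, and was not used. The 4 mitochondrial intervals were left out.

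Abutting intervals were joined with pandas 2.3.3 and numpy 2.4.6 (Python 3.11.15; figures with matplotlib 3.10.9). Genes came from RefSeq GRCm38.p6 and coordinates are 1-based. Exons and introns were not used here. The counting was tested on simulated data, where the known number was recovered at 200 of 200 genes. All simulated regions lay inside the window around the lower-coordinate end of genes far apart. The limit of the window and windows shared between genes were therefore not tested. Clusters were formed by stitching across gaps of up to 12.5 kb. The genes, lists, motifs and named genes (all 10 members, the 10 pathway genes with the most regions, those with none, and neighbours holding a counted region) were chosen with earlier results of these data known. Not every gene that fits the naming rule is reported here. Other genes were named after their values were seen. Alternatives changed the joining, the width filter, the window and the credit to genes. No test between conditions was possible, because no interval is assigned to a library.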

Additional observations from a re-analysis of the deposited data

How the results depend on the processing

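No paired analysis was possible because the deposited intervals are assigned to no library, and for the same reason no library could be left out. Under the alternatives run for each, 6 to 9 genes were overlapped and 7 to 10 had a midpoint within the window. A start lay inside a region at 5 to 7. All these counts stayed within 1.5 times the reported value. The lowest came from keeping only regions at or above the median width. With that filter 32.0% of protein-coding genes were overlapped and 55.6% had a midpoint within the window, against 50.6% and 70.3%. The share of starts was not recomputed. The filter left Itgax and Itgb1 with no region, and Itgal with none over the gene. The value of 10 came from a window of 100 kb (77.0% of protein-coding genes), in which Vcam1 had 2 regions. The median number of regions per gene was 17 for unjoined intervals (5 over protein-coding genes), 3 for regions at or above the median width (1), 4.5 without regions of 1 interval (1), 2 with a window of 10 kb (1), 11 with a window of 100 kb (4) and 3 when regions were credited to the nearest gene (0). The median covered length of the window was 19.0 kb (4.24 kb over protein-coding genes). It became 11.3 kb (2.34 kb) for regions at or above the median width and 11.4 kb (1.51 kb) with a window of 10 kb. Pathway genes with a region numbered 38 with a window of 10 kb and 53 with one of 100 kb, against 48. These pathway numbers include genes that a region overlaps without a midpoint in the window. The like share over protein-coding genes, 70.6% in the main setting, was not computed for the other windows. By midpoints alone, the share of protein-coding genes was 55.6% and 77.0% in these settings, against 70.3%. Joining within 500 bp and counting any overlap changed none of these medians by more than 1.5 times. Just inside the window limit lay regions at Icam1 (48.9 kb) and Itga4 (48.8 kb), and just outside it regions at Itgal (51.9 and 52.0 kb) and Icam1 (54.2 kb).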
